A study of Felis catus with 23 samples.

Results

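The myomiRs are the microRNAs (miRNAs) enriched in striated muscle. Of the 2026 miRNA names on the array, 7 belong to this group and were chosen by name: hsa-miR-1, hsa-miR-133a, hsa-miR-133b, hsa-miR-206, hsa-miR-208a, hsa-miR-208b and hsa-miR-499a-5p, written below without the prefix hsa, which stands for human. Each had 2 probes of 15 spots, so 14 of the 4944 miRNA probes measured them.

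Serum came from 11 cats (Felis catus) with hypertrophic cardiomyopathy (HCM, in which the wall of the heart is abnormally thick) and from 12 healthy cats, with 1 array for each cat. The labels give no age, sex, breed, genotype, drug or stage of disease for either group, so neither group can be described further. All blood clotted for 20 min before a spin of 5 min at 600 g, serum was frozen at -80 °C, and its total RNA was later isolated and labelled with the dye Cy3. The arrays were 1-colour Agilent arrays with probes for human and some viral miRNAs. Every name below is that of a human probe, not of a cat miRNA. Cats are named by group and by the number in their label.

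In mammals miR-1 and miR-133a are made together from shared transcripts in heart and skeletal muscle, while miR-206 and miR-133b come from another shared transcript, used mainly in skeletal muscle. miR-208a, miR-208b and miR-499a lie inside introns of myosin heavy chain genes, MYH6, MYH7 and MYH7B, and are made with them. When muscle or heart cells are injured these miRNAs can leak into the blood, which is why they are studied as serum markers. miR-133a and miR-133b are nearly identical, while miR-208a and miR-208b are close relatives, as are miR-1 and miR-206. A probe for 1 of a pair may therefore bind the other, and values of such pairs are uncertain as to which was measured.

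The arrays differed in brightness. The 75th percentile of processed intensity (the scanner software's background-corrected signal, in arbitrary units) over the probes detected on all arrays ran from 152 to 503 in HCM and from 90.5 to 699 in healthy cats. Between 360 and 612 names were detected on HCM arrays and between 322 and 600 on healthy arrays, where detected means that at least 50% of a probe's spots were marked well above background by the scanner software. The arrays lay on 3 slides, each with both groups, but all HCM arrays were in row 1 of a slide and all healthy arrays in row 2, so that row and disease cannot be told apart. The 1 array that stood apart in the myomiRs was HCM 10, and values are given with and without it. Of 7 names listed for red blood cells, miR-451a, miR-144-3p, miR-486-5p and miR-92a-3p were detected on all 23 arrays, while miR-16-5p was detected on 3, miR-486-3p on 1 and miR-144-5p on 0. Precision is limited by how many arrays there are.

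Most myomiR spots in cat serum were dark, and those that were bright came from a few cats. After 127 of the 4830 myomiR spots were left out as outliers, 462 of 4703 were well above background. They divided into 331 of 2242 spots in HCM and 131 of 2461 in healthy cats. A single cat, HCM 10, supplied 149 of them, which was 71.3% of its 209 myomiR spots. On the other arrays this share was at most 34.0%, reached on HCM 8. Over the arrays it had a median of 5.34% in HCM (lowest 0%, highest 71.3%) and 1.68% in healthy cats (lowest 0%, highest 17.5%), and the groups overlapped. For comparison, 14.01% to 27.4% of all miRNA spots were well above background on an array (median 21.1%). For spots of viral miRNA names the share was 12.5% to 29.7% (median 24.3%), and for negative control spots 0% to 0.202%. What the bright viral spots had bound was not tested.

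**Figure D1:**
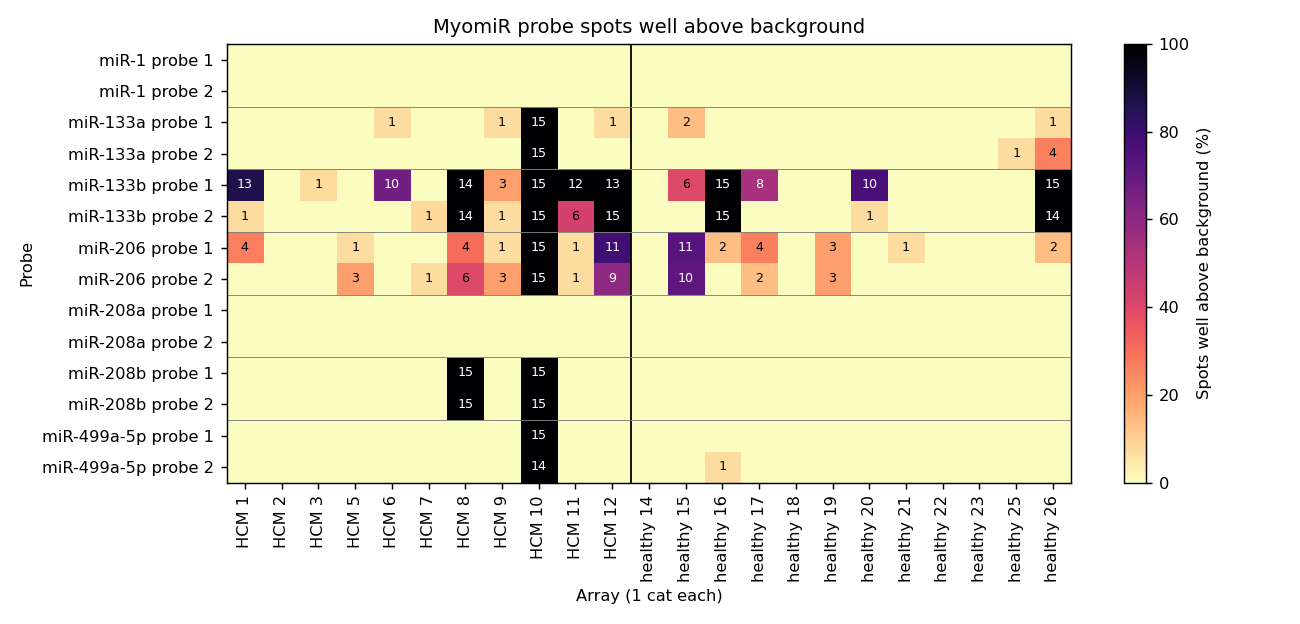
Spots well above background for each of the 14 myomiR probes (rows; probe 1 is the probe with the lower number) on each of the 23 arrays (columns, HCM left of the line and healthy right). Colour gives the percent of spots kept and the number in a cell counts the spots, with empty cells at 0. HCM 10 is filled for 5 of 7 names, the miR-208b rows are filled on HCM 8 and HCM 10 alone, and the miR-1 and miR-208a rows are empty.

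Most arrays held at least 1 bright myomiR spot, though HCM 3, healthy 21 and healthy 25 held only 1 each. At least 1 myomiR spot was well above background on 18 of 23 arrays, 10 of 11 HCM and 8 of 12 healthy. The 5 arrays with none were HCM 2, healthy 14, healthy 18, healthy 22 and healthy 23. A myomiR counted as detected on 11 arrays, 6 of them HCM (1, 6, 8, 10, 11 and 12) and 5 of them healthy (15, 16, 17, 20 and 26). After HCM 10, the arrays with the most bright myomiR spots were HCM 8 with 68, HCM 12 with 49, healthy 26 with 36, healthy 16 with 33 and healthy 15 with 29. These arrays came from both groups. By the 75th percentile healthy 15, HCM 12, HCM 10 and healthy 26 ranked 1, 2, 3 and 5 of 23. HCM 8 and healthy 16 ranked 16 and 19. The arrays without a bright myomiR spot ranked 6 (healthy 14), 10 (healthy 18), 18 (healthy 23), 20 (HCM 2) and 21 (healthy 22). The part of array brightness in these spot counts was not tested.

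miR-133b, the skeletal muscle partner of miR-206, was the myomiR detected on the most arrays. It passed on 6 of 11 HCM and 4 of 12 healthy arrays, with 81 of 154 and 54 of 176 spots of the probe used for testing (A_25_P00010963) well above background. Its intensity was lowest at 0.0421, had a median of 8.01 and was highest at 1313 in HCM. In healthy cats the lowest was 0.908, the median 3.22 and the highest 55.8. The groups overlapped over nearly their whole ranges, and HCM 10 lay far above every other array.

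The order of arrays for miR-133b mixed both groups. HCM 10 gave 1313 ± 90.8 (SD over 15 spots) and healthy 26 followed with 55.8 ± 2.76 (15 spots). HCM 12 had 37.8 ± 2.31 (13 spots), HCM 8 had 31.2 ± 2.37 (14 spots) and healthy 16 had 21.1 ± 2.15 (15 spots). The steps between these arrays exceeded the SD over spots, which measures the array and not the cat. Below them HCM 11 (11.0 ± 1.19), HCM 1 (8.73 ± 1.80), HCM 6 (8.01 ± 1.53) and healthy 20 (7.58 ± 1.10) came close together, and HCM 1, HCM 6 and healthy 20 did not differ beyond the SD over spots. The second probe gave 618 on HCM 10, and its arrays stood in nearly the same order (Spearman's rho between the probes 0.960 over 23 arrays of shared samples, a description). Once arrays were scaled to a common 75th percentile, HCM 8 (38.1), healthy 26 (36.6) and healthy 16 (32.5) followed HCM 10 (785.7).

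**Figure D2:**
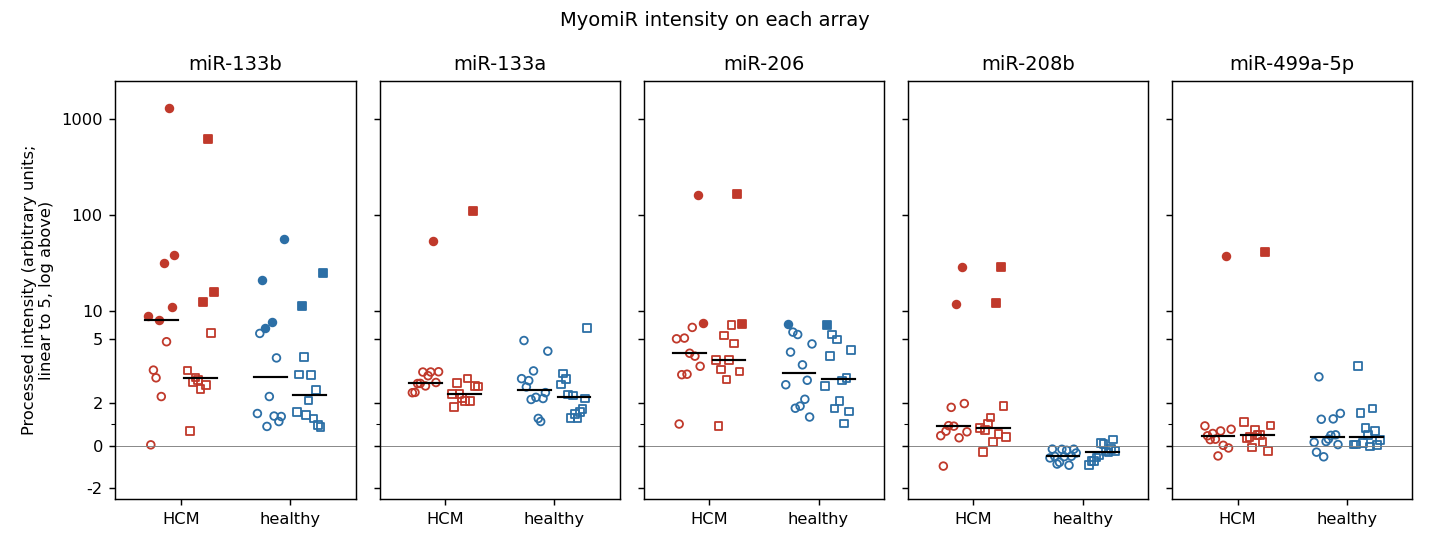
Processed intensity of the 5 myomiRs with any bright spot, for each array, in HCM (red) and healthy cats (blue). Circles are probe 1 and squares probe 2, filled symbols are arrays where that probe was detected, black bars are group medians, and the vertical axis is linear up to 5 and logarithmic above. The highest HCM point in each panel is HCM 10, at 1313 for miR-133b, and only miR-133b has several filled points in both groups.

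The comparison of HCM with healthy serum asks whether the diseased heart muscle is matched by a change in circulating miRNAs. Only miR-133b, of the 7 myomiRs, was detected on the 6 arrays needed to enter the test (limma, 2-sided, Benjamini-Hochberg over 543 names). Its log2 scaled intensity averaged 3.68 ± 2.17 (SD, n = 11) in HCM and 3.13 ± 1.10 (SD, n = 12) in healthy cats, where 5 and 8 arrays lay at the floor of 2.45. The difference of 0.55 (SE 0.65) was smaller than the spread between cats (limma p = 0.409, adjusted p = 0.813). The healthy median was the floor itself, and 6 of 11 HCM and 4 of 12 healthy arrays lay above it. No name passed in this test (0% of 543), and 36 had an unadjusted limma p under 0.05. The median difference of all tested names was -0.10, and 0.21 when arrays were not scaled, where miR-133b differed by 0.79.

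The sign of the miR-133b difference rested on HCM 10. Without that array it was -0.05 (SE 0.41, limma adjusted p = 0.979), while leaving out any other single array gave values up to 0.74. Within slides the difference was -0.70 on slide 1 (3 HCM, 4 healthy), 0.25 on slide 2 and 1.84 on slide 3, which held HCM 10 (4 and 4 each). None of these passed, and with slide as a block it was 0.52 (SE 0.66, limma adjusted p = 0.799).

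**Figure D3:**
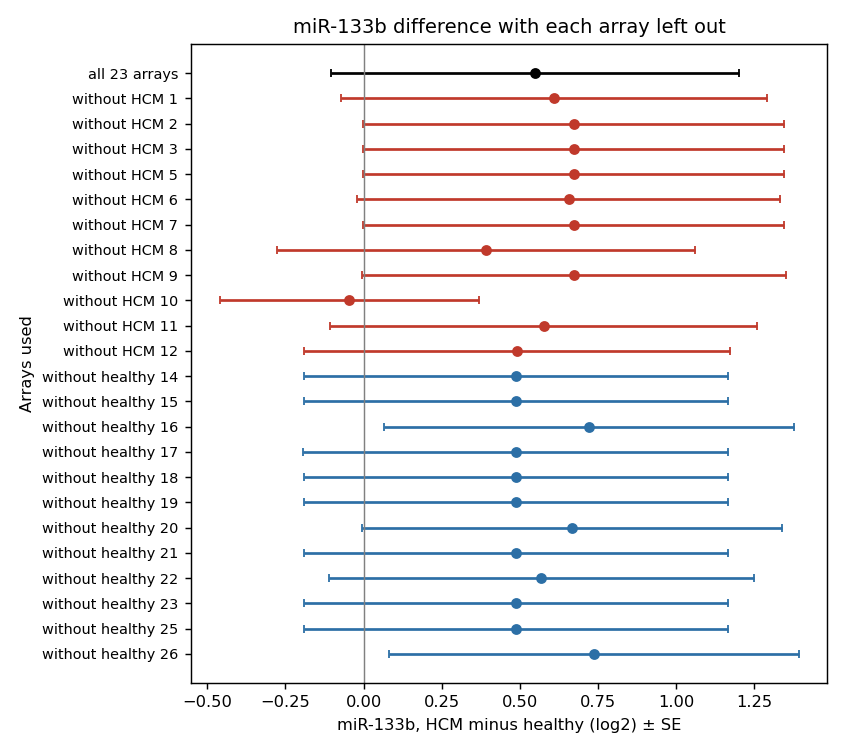
Difference of miR-133b between HCM and healthy cats (log2 scaled intensity, horizontal axis) from all 23 arrays (black) and with each array left out in turn (rows; red for an HCM array, blue for a healthy one). Points are limma estimates and bars are ± 1 SE. The estimate is 0.55 with all arrays and -0.05 without HCM 10, and it stays above 0 when any other array is left out.

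miR-206, the myomiR of skeletal muscle, was detected on 3 arrays. HCM 10 gave 161 and 164 on its probes. On probe A_25_P00010528 the HCM arrays had a lowest value of 1.02, a median of 4.35 and a highest of 161, and the healthy arrays 1.35, 3.44 and 7.24. The other arrays that passed were HCM 12 (7.36, 11 of 14 spots) and healthy 15 (7.24, 11 of 15 spots), which did not differ beyond the SD over spots (1.21 and 1.70). With HCM 10 aside, the groups covered the same range. Single spots were bright on many more arrays, and with 1 bright spot as the rule miR-206 counted on 7 HCM and 6 healthy arrays by this probe. By its other probe, the one used for testing, it counted on 7 HCM and 3 healthy arrays (Fisher's exact test p = 0.0995, adjusted p = 1).

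miR-133a, made together with miR-1 in heart and skeletal muscle, was detected on HCM 10 alone. There its probes gave 53.5 ± 5.05 and 110 ± 6.02 (SD over 15 spots each), with every spot well above background. Elsewhere no array exceeded 4.95 on the first probe (healthy 15) or 6.57 on the second (healthy 26). The medians were 2.97 in HCM and 2.63 in healthy cats on the first probe, and the groups overlapped apart from HCM 10. A few spots were bright on healthy 26 (1 and 4), healthy 15 (2), healthy 25, HCM 6, HCM 9 and HCM 12 (1 each).

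miR-499a-5p, carried in the myosin gene MYH7B, was likewise detected on HCM 10 alone. It gave 37.2 ± 1.79 and 40.6 ± 2.37 there, with 15 of 15 and 14 of 14 spots well above background. The medians were 0.468 and 0.5005 in HCM and 0.401 on both probes in healthy cats. The next highest array was healthy 16 on both probes (3.24 and 3.74), where 1 spot was bright. All other arrays were dark for this name.

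miR-208b, carried in the slow myosin gene MYH7, was bright on HCM 10 and HCM 8 and on no healthy array. HCM 10 gave 28.5 ± 3.28 and 28.5 ± 2.34, and HCM 8 gave 11.6 ± 1.94 and 12.1 ± 1.52 (SD over 15 spots), with all 15 spots of both probes well above background on both arrays. In healthy cats none of 175 and 174 kept spots of the probes was well above background. miR-208b was the 1 name of 2026 (0.0494%) detected on exactly these arrays, and 9 names (0.444%) were detected on 2 HCM and no healthy arrays. Both counts were framed by the arrays that detected miR-208b, so they describe it and do not test it. HCM 8 was also second to HCM 10 in scaled miR-133b, but its miR-133a (3.29 and 3.16) and miR-499a-5p (0.695 and 0.5005) were within the range of the dark arrays.

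miR-1, among the most abundant miRNAs of the heart, and miR-208a, carried in the myosin gene MYH6 and largely limited to the heart, gave no bright spot. None of 669 kept spots of miR-1 and none of 680 of miR-208a was well above background, HCM 10 included. Intensities ran from -0.753 to 1.17 for miR-1 and from -1.58 to 0.405 for miR-208a over both groups, while the negative control probes averaged between -1.003 and 2.52 over the arrays. On HCM 10 the miR-1 probes gave 0.308 and 1.17, and the miR-208a probes -0.253 and -0.185. Both names were at the floor on all 23 arrays and could not be tested on the floored values. A rank test of unfloored signal is given below. Whether these human probes bind the cat miRNAs was not tested.

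The detection of each myomiR was compared between groups by Fisher's exact test (2-sided, adjusted over the 452 names detected on 1 to 22 arrays). For miR-208b, 2 of 11 against 0 of 12 arrays gave p = 0.217 (Fisher's exact test, adjusted p = 0.996). For miR-133b, 6 of 11 against 4 of 12 gave p = 0.414 (Fisher's exact test, adjusted p = 0.996). miR-133a and miR-499a-5p, with 1 against 0, had p = 0.478, and miR-206, with 2 against 1, had p = 0.590 in the same exact test. For miR-208b, miR-133a, miR-499a-5p and miR-206 so few arrays detected the name that no split between the groups could have passed. Their p-values therefore do not show that detection was alike in the groups. No name passed (0% of 452), and 18 had an unadjusted p under 0.05. In a limma fit without the detection filter, over the 722 names that varied, the 5 myomiRs differed by 0.19 to 0.55 with adjusted p = 0.812 each and no name passed (0%, 43 at an unadjusted p under 0.05). Without HCM 10, the differences in that fit were -0.0038 for miR-133a, -0.0067 for miR-499a-5p, 0.035 for miR-206 (0.41 with HCM 10), 0.14 for miR-208b and -0.05 for miR-133b. No fold change is given for myomiRs detected in HCM alone, because their HCM mean was below the bound set by the dimmest detected probes.

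Below the detection limit, miR-208b had a further pattern. Its unscaled intensity on probe A_25_P00013035 had a lowest value of -0.957, a median of 0.920 and a highest of 28.5 in HCM. The healthy arrays had -0.917, -0.496 and -0.158. On this probe 10 of 11 HCM arrays were above every healthy array, all but HCM 2, and on probe A_25_P00014917 9 of 11 were, all but HCM 2 and HCM 7. Of 4944 probes 1 (0.0202%) had 10 or more HCM arrays above all healthy arrays and 3 (0.0607%) had 9 or more, so that both miR-208b probes were among these 3. With the mean of each array's negative control spots subtracted, the counts were 8 of 11 (all but HCM 1, HCM 2 and HCM 3) and 7 of 11 (HCM 7 also below), where 4 of 4944 probes (0.0809%) had 8 or more and 11 (0.222%) had 7 or more. Apart from HCM 8 and HCM 10 these intensities were at most 1.98, and no spot of them was well above background. The cut-offs for the shares of probes were the counts of miR-208b itself, so the shares describe its pattern and do not test it.

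A rank permutation test over all 4944 probes, chosen after this pattern was seen, did not call miR-208b. The test used 100000 permutations of the groups, was 2-sided, and took each array's signal minus the mean of its negative control spots. It gave p = 0.0124 and p = 0.0221 for the probes (permutation test, adjusted p = 1 for both), with 1.88% of probes at an unadjusted p under 0.05. Without HCM 10 it gave p = 0.0254 and p = 0.0418 (permutation test, adjusted p = 0.960 for both), with 2.04% of probes under 0.05. With groups permuted within slides the values were p = 9.0e-05 and p = 0.00145 (adjusted p = 0.445 and 0.587), ranks 1 and 9 of 4944, with 6.47% of probes under 0.05. Without subtraction of the negative controls they were p = 0.00035 and p = 9.0e-05 (permutation test, adjusted p = 0.213 for both), with 7.12% under 0.05, and within slides p = 0.00041 and p = 0.00019 (adjusted p = 0.194 and 0.188), with 8.84% under 0.05. Without HCM 8 and HCM 10, within slides, they were p = 0.00084 and p = 0.0125 (permutation test, adjusted p = 0.199 and 0.282), with 13.8% under 0.05. No probe passed in any of these settings (0%). Of the closely related miR-208a, probe A_25_P00014831 had p = 0.316 in this permutation test with the controls subtracted. Without subtraction its ranks were higher in HCM, with p = 0.0188, and p = 0.0163 within slides (permutation test, adjusted p = 0.556 and 0.410). The other miR-208a probe, A_25_P00010138, had p = 0.929 with subtraction, and p = 0.289 and 0.299 without it.

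The miR-208b pattern was not the same on each slide. Relative to the negative controls, HCM medians exceeded healthy medians on the probes by 0.27 and 0.40 on slide 1, by 1.77 and 1.31 on slide 2 and by 1.83 and 1.95 on slide 3. On slide 1, 2 of 3 and 1 of 3 HCM arrays were above all healthy arrays of the slide, against 4 of 4 and 3 of 4 on slide 2 and 4 of 4 on both probes on slide 3. The mean of the negative control spots itself drifted between slides, from 1.59 on HCM 2 (slide 1) to -0.68 on healthy 17 (slide 3). It also differed between groups, with a median of 0.488 in HCM and 0.258 in healthy cats. On slide 1 it was 1.41 to 1.59 in HCM and 0.74 to 1.15 in healthy cats. The ranges overlapped on slide 2 (0.11 to 0.60 and -0.01 to 0.38) and on slide 3 (-0.49 to -0.09 and -0.68 to 0.12). Slide row and disease cannot be told apart in these values.

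**Figure D4:**
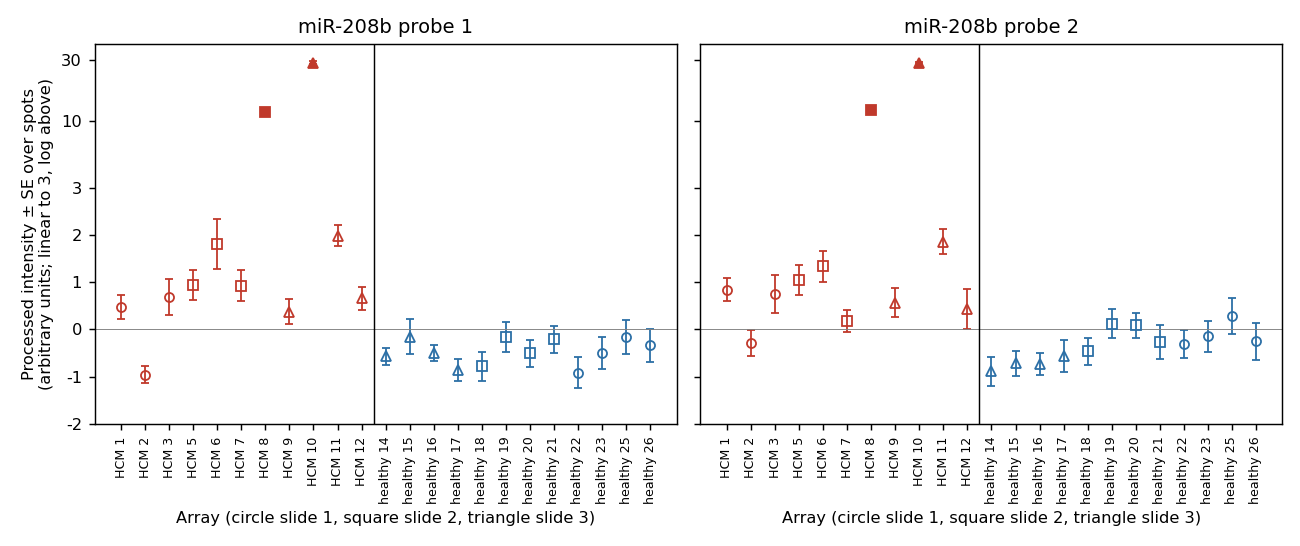
Processed intensity of miR-208b on each array for its 2 probes, HCM in red and healthy in blue, with bars of ± 1 SE over the spots of the array. Circles, squares and triangles are slides 1, 2 and 3, filled symbols are detected arrays, and the vertical axis is linear up to 3 and logarithmic above. HCM 10 (28.5) and HCM 8 (11.6 and 12.1) stand out, and on probe 1 the other HCM arrays except HCM 2 lie above the highest healthy array at -0.158.

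Measured values of 4 myomiRs were among the 5 names in which HCM 10 most exceeded the other arrays. On the log2 scaled intensity, miR-133b on HCM 10 was 4.37 above the next highest array (HCM 8), a 20.6-fold difference. For the other myomiRs most arrays did not detect the name and give only a bound. An array without detection was set to the higher of its own value and the lowest signal of any probe it detected. miR-206 was then at least 5.56-fold higher on HCM 10 than on every other array, miR-133a at least 3.73-fold and miR-499a-5p at least 1.38-fold, and no fold can be given for miR-208b. On the floored values as measured, 5 of 2026 names (0.247%) were higher on HCM 10 than on every other array by at least 2 on the log2 scale, and 4 of these were myomiRs (miR-133b, miR-133a, miR-206 and miR-499a-5p). The 1 other was miR-122-5p, the main miRNA of liver cells, at 2.21. HCM 10 had the highest value of 40 names (1.97%) and was the only array to detect 19 (0.938%). Such counts were not particular to HCM 10, since healthy 20 had the highest value of 130 names, healthy 16 of 70, healthy 17 of 58 and healthy 15 of 43, and healthy 15 alone detected 20. No other array had a myomiR above all others by 2.

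**Figure D5:**
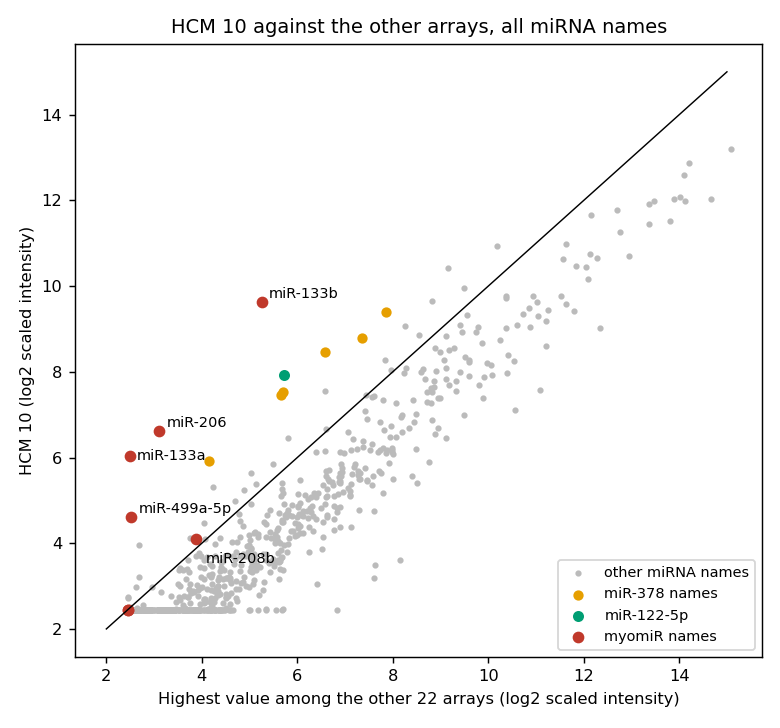
Log2 scaled intensity of each of the 2026 miRNA names on HCM 10 (vertical axis) against the highest of the other 22 arrays (horizontal axis), with the line of equality. MyomiRs are red, miR-378 names orange, miR-122-5p green and all others grey, and values at 2.45 are at the floor. miR-133b lies 4.37 above the line, while miR-206, miR-133a and miR-499a-5p lie above it against arrays that did not detect them, so that their distance is not exact; most names lie below.

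HCM 10 was also among the brighter arrays. Its 75th percentile was 427 and it detected 592 names, rank 3 of 23 in both. The summed scaled intensity of 4 liver names was 259.8 on HCM 10, the highest of all arrays, against 21.8 to 68.99 in healthy cats. Of these names, 2 were detected on no array, and on HCM 10 all but miR-122-5p lay at the floor. This liver sum therefore restates the value of miR-122-5p given above. The sum of 7 red cell names was 6529 (rank 9), within the healthy range of 1647 to 16676, and the difference of miR-451a and miR-23a, used as a sign of red cell lysis, was 0.19 (rank 4). The red cell names were not alike, since miR-144-3p was highest on HCM 10 (log2 9.06, next array 8.26). There miR-451a and miR-16-5p ranked 3, miR-92a-3p 6 and miR-486-5p 9, while miR-144-5p and miR-486-3p lay at the floor. Other sums on HCM 10 ranked 2 for 6 platelet names, 5 brain names and 5 endothelium and vessel wall names. They ranked 3 for 5 epithelium and gland names and 4 for 6 leukocyte names. The largest platelet value there was miR-24-3p (log2 8.27), followed by miR-223-3p (4.38). The largest vessel value was miR-145-5p (11.98), followed by miR-222-3p (4.99). HCM 10 held the highest value of 1 platelet, 1 leukocyte, 2 brain, 1 vessel and 0 epithelium and gland names. It ranked 16 for miR-124-3p, 13 for miR-205-5p and 8 for miR-197-3p. The part of these lists in the myomiR values was not tested. In serum, more cells giving up RNA and more RNA from each cell cannot be told apart.

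Names whose pattern over the arrays was most like miR-133b, of 542 others tested, were miR-4291, miR-378a-3p and miR-505-3p. For miR-4291 Pearson's r was 0.807 and Spearman's rho 0.814 over 23 arrays (permutation p = 1e-05, the smallest possible, and 3e-05, adjusted p = 0.00271 and 0.00406). Its r was 0.813 without HCM 10 and HCM 8, the arrays farthest from the median of miR-133b. For miR-505-3p r was 0.781 and rho 0.737 (permutation p = 7e-05 and 0.00017, adjusted p = 0.00948 and 0.0132), and r was 0.644 without those arrays. For miR-378a-3p r was 0.782 and rho 0.386 (permutation p = 0.001 and 0.0702, adjusted p = 0.0338 and 0.258), and r fell to 0.336 without them, so that it rested on those arrays. These arrays share scaling and depth, and 13 of 23 lay at the floor for miR-133b. miR-4291 was detected on only 7 arrays and miR-505-3p on 11, while miR-378a-3p was detected on all 23.

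The authors' deposited log2 values held 10 of the 14 myomiR probes, for 5 of 7 names. HCM 10 was the highest array for 8 of these 10 probes, for example at 9.93 for miR-133b, where healthy 26 followed with 5.45. For both miR-133a probes the highest deposited value belonged to a healthy cat instead, 6.85 on healthy 20 and 6.43 on healthy 22, ahead of 5.30 and 6.33 on HCM 10. On those arrays 1 and 2 of 15 spots were marked as outliers, the brightest at 211 and 171, and the remaining spots averaged 2.28 and 1.57. In the same way the deposited 7.50 of the second miR-133b probe on HCM 3 came with 1 outlier spot at 2974, where the other spots averaged 2.999. Also the 4.39 of a miR-499a-5p probe on HCM 1 came with an outlier spot at 36.9, where the others averaged 1.13. This did not hold for every such array: the other miR-499a-5p probe on healthy 18 had 3 outlier spots, the brightest at 169, and a deposited value of 0.82, which was below the probe's median of 1.49. In a limma fit of the deposited values over 965 names, miR-208b differed by 0.71 (p = 0.0419, adjusted p = 0.622), and 1 name passed (0.104%), which was no myomiR.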

How the data were processed

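The scanner files hold Agilent Feature Extraction 10.7.3.1 output for 1-colour arrays, per the file headers; the values used are the deposited processed signal of each spot (an intensity, background-corrected by that software, with no normalization between arrays) and the flags the software gave each spot. The authors' deposited log2 values in the series table were an alternative, and how they were normalized is not given in the sources used here. Spots marked as outliers were dropped, and each probe's remaining spots were averaged. Detection required 50% or more of a probe's spots to be well above background. Arrays were scaled to their 75th percentile over 508 probes detected on all arrays, floored at 5.45 (the 5th percentile of detected signals) and taken to log2. Each name took the values of its probe of highest mean and was tested if detected on at least 6 of 23 arrays, with limma 3.58.1 in R 4.3.3 (lmFit and eBayes, Benjamini-Hochberg, threshold 0.05). Detection was compared by Fisher's exact test in scipy 1.17.1. Scripts were tested on simulated data. The values planned as normexp on the mean signal used the median signal, the column in the files. All 7 myomiRs are named, with the 3 names most like each tested one. The myomiRs and marker lists were chosen with earlier results of these data known. No miRNA sequence or cat position was used here, and the cat gene table used here holds no entry of the type miRNA. The 23 arrays are those of separate cats, per the design text. Alternatives covered scaling, background, floor, filter, probe summary, outlier spots, detection rule, slide and arrays left out.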

Additional observations from a re-analysis of the deposited data

How the results depend on the processing

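miR-133b was called under none of 17 alternatives or 23 fits that each left out 1 array. Its difference was above 0 in 16 of the 17, from 0.15 (normexp background) to 1.84 (slide 3 alone), the exception being -0.70 on slide 1, and ran from -0.045 (without HCM 10) to 0.74 with an array left out. It was not tested when detection on at least 12 arrays was required. The count of tested names passing, 0 here and 0 to 0 with an array left out, was 1 with a lower floor, 1 with the software's total gene signal, 4 with the deposited values and 2 on slide 2 alone. Without a detection filter it was 1 with a lower floor, 1 with total gene signal, 1 with the deposited values and 3 on slide 2 alone. In that unfiltered fit normexp background gave a median difference of -0.31 over 2026 names, 1953 of them lower in HCM, and with it turned the differences of miR-133a (-0.17), miR-206 (-0.13), miR-499a-5p (-0.25) and miR-208b (-0.21), which all lay above that median, while the deposited values turned miR-133a (-0.090). Without HCM 10 miR-133a was -0.0038 and miR-499a-5p was -0.0067, with the same values without HCM 8 and HCM 10, where miR-206 was -0.032. The cause was not tested. miR-1 and miR-208a were detected on 0 arrays and miR-208b on 2 or 3 under all 6 other detection rules. With spots called positive and significant, a looser call that also marked 3.66% to 59.2% of negative control spots, miR-133a counted on 19 arrays, miR-133b on 18 and miR-206 on 20. Signal near background limits 6 of the 7 myomiRs, which were detected on 0 to 3 arrays. No paired analysis was possible because the groups share no replicate number.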

Other observations

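Of 31 other names listed as tied to muscle or heart, the array held 27, of which 11 passed the detection rule nowhere (over all names 1304 of 2026, 64.4%) and 14 entered the test. Of these, 5 were higher and 9 lower in HCM, none passed limma (0%), and their median difference was -0.12 against -0.10 over all 543 tested names. HCM 10 held the highest value of 4 of the 27, miR-21-5p, miR-22-3p, miR-29a-3p and miR-378a-3p.

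After the myomiRs and miR-122-5p, the names in which HCM 10 most exceeded every other array were 6 of the miR-378 family, which is found in muscle, liver and other tissues with a high use of oxygen. They were miR-378d (1.88 above the next array on the log2 scale), miR-378g (1.82), miR-378f (1.79), miR-378e (1.77), miR-378a-3p (1.54) and miR-378i (1.43). Of the family's 4 other names on the array, HCM 10 ranked 2 for miR-378b and 9 for miR-378c, and miR-378a-5p and miR-378h were detected nowhere. Names of 1 family share much of their sequence. They were chosen for mention after their values were seen. Over the groups miR-378a-3p differed by 0.12 (limma adjusted p = 0.909). Healthy 16 exceeded every other array by at least 2 in 6 names, none of them a myomiR.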
